A study of Mus musculus with 12 samples.

Results

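The interferon response and antigen presentation genes examined here are a list of 39 mouse genes chosen by symbol, of which 38 matched a row among the 44345 gene names of both count tables. All 38 passed the filter on low counts in whole ganglia and in captured neurons. The other member, Ifi27, was matched by its Ensembl identifier to the row named Ifi27l1. It is described apart and not counted among the 38. The genes were read in dorsal root ganglia (DRG), which hold the cell bodies of the body's sensory neurons together with glia, vessels and resident macrophages.

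The study housed C57BL/6 mice aged 5 to 8 weeks for 10 days in environmental enrichment (EE) or in standard housing (SH) and sequenced RNA from 12 libraries in 4 groups of 3. Whole ganglia of EE and SH mice were pooled from 2 mice per library, and their SH and EE libraries of the same replicate number shared a sequencing lane. Large-diameter neurons of at least 30 µm were cut by laser from stained sections of EE and SH ganglia, with 3 mice per library. Captured EE replicate 1 ran in lane 1, captured SH replicate 2 in lane 2 and the rest in lane 3. Lane was therefore not balanced over housing in captured neurons. The labels name no transgene, lesion or drug for any group, although Sham appears, unexplained by any label, in column headings of the whole-ganglion tables. The 2 preparations used different library kits, a TruSeq mRNA kit for whole ganglia and a RiboZero ScriptSeq kit for captured neurons. The question was whether housing shifted these genes in the ganglion or in its large neurons.

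Interferons are secreted proteins that cells release on sensing virus or other danger. Type I interferon binds a receptor whose kinases activate a complex holding STAT2 and IRF9, which binds a promoter motif called the interferon-stimulated response element, whereas type II interferon acts mainly at gamma-activated sites. The induced genes block viral replication, tag proteins with ISG15, sense foreign RNA and increase the loading of peptides onto MHC class I molecules. Most cells keep a low tonic level of this programme without infection, and resting neurons are known for low MHC class I display.

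The promoter motif by which the list is known could be read in the mouse reference. RefSeq start-site windows (250 bases before the start and 50 after it, GRCm38.p6) were matched by symbol for 30 of the 38 genes. A run of GAAANNGAAA, on either strand, was found in 15 of those 30 (50%), against 3.99% of 27025 genes with a window. The 15 were B2m, Bst2, Ddx58, Gbp2, Gbp3, Ifih1, Ifit1, Ifit3, Ifitm3, Igtp, Irgm1, Isg15, Oas1a, Rsad2 and Stat2. A run of TTCNNNGAA, which reads the same on both strands and resembles the gamma-activated site, was found in 7 of 30 (23.3%), against 9.55% of genes. A match is a description of the letters and not a measured binding site. The stretches of 60 bases below, 5′ to 3′ on the gene's strand, are shown because these genes recur in the results. Capitals mark GAAANNGAAA or its reverse complement, overlapping matches included.
Ifit1, chr19:34640769-34640828, plus strand: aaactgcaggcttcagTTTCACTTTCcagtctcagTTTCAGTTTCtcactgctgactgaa
Isg15, chr4:156200856-156200915, minus strand: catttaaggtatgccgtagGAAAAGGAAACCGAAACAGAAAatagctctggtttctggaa
Stat2, chr10:128270251-128270310, plus strand: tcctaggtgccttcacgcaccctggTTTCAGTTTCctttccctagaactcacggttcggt
Igtp, chr11:58199496-58199555, plus strand: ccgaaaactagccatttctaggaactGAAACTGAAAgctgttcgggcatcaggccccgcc
B2m, chr2:122147523-122147582, plus strand: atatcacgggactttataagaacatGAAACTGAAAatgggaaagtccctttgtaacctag
Rsad2, chr12:26456538-26456597, minus strand: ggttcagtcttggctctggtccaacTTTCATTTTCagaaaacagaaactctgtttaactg
Isg15 held 3 overlapping matches and Ifit1 held 2, and the other 4 genes held 1 each in the stretch shown.

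Reads assigned to genes ranged from 11343579 to 17036481 per whole-ganglion library and from 19296230 to 29434351 per captured library. Labelled tissues were checked against markers: the summed level of 8 myelinating Schwann cell genes was 6170 to 8857 CPM (reads scaled to library size) in whole ganglia and 927 to 1274 CPM in captured neurons. In SH, the large-neuron sums went against the label of captured large neurons, and the nociceptor sums overlapped between the preparations. The library kits differ between the preparations, so these sums do not show how much of each cell type was captured. The same limit holds for the Schwann cell sums. In SH, 10 large-neuron genes summed to 8189 to 10182 CPM in captured neurons, below the 14296 to 15281 CPM of whole ganglia. Nociceptor genes summed to 3156 to 3757 CPM against 3404 to 3831 CPM, and satellite glia genes to 2097 to 2359 CPM against 2902 to 3169 CPM. Macrophage genes (60.2 to 85.8 against 160 to 174 CPM) were also lower in captured SH neurons. The same held for endothelial genes (134 to 149 against 180 to 220 CPM) and fibroblast and meningeal genes (274 to 458 against 825 to 926 CPM). In EE, the large-neuron sums overlapped, at 10593 to 14437 CPM in captured neurons and 13177 to 13862 CPM in whole ganglia. Captured SH replicate 2 stood apart, with a summed level of 8 skeletal muscle genes of 2097 CPM against 15.4 to 44.3 CPM in the other captured libraries. Whether different mice went into each replicate is not stated, and p-values therefore reflect only how far the libraries of a group scatter.

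Of the 5 antigen presentation genes, 4 were among the 5 highest of the list in whole ganglia of SH mice, and the other, Tap1, was at rank 31 of 38 with 1.38 FPKM. Levels between genes are compared here per length, as the authors' FPKM (fragments scaled to transcript length and library size), with SD over n = 3 libraries. B2m, the invariant light chain of MHC class I, was highest at 234 ± 18.6 FPKM. Ifitm3, a membrane protein that blocks virus entry, had 70.1 ± 6.1 FPKM and H2-D1, a class I heavy chain, 67.4 ± 6.88 FPKM, and these neighbours did not differ beyond their spread. H2-K1, the other classical heavy chain, followed at 31.0 ± 3.14 FPKM, and Tapbp, the tapasin that helps load peptide, at 20.7 ± 0.56 FPKM. Ifit1, which binds viral RNA ends, had 19.1 ± 0.874 FPKM and Stat2 17.0 ± 1.08 FPKM. At the other end, Oas2, an RNA-activated synthetase, had 0.230 FPKM, Mx1, a GTPase against influenza virus that is defective in many laboratory strains, 0.375 FPKM, and Ifi44 0.508 FPKM. Mx1 was counted with 7 to 25 reads per whole-ganglion library. H2-K1 and H2-D1 are near-identical in part, as are members of the Gbp, Oas and Ifit families, and reads shared between such copies could be split or lost in counting.

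In the whole ganglion, none of the 38 genes differed between EE and SH (edgeR quasi-likelihood test, adjusted over 15845 genes, smallest adjusted p among the 38 = 0.9996). The background was 1 gene called (0.00631%). With no adjustment, 0 of 38 had p under 0.05, against 1.34% of genes higher and 1.55% lower in EE. The sign was positive for 25 of 38 (65.8%) and for 51.3% of all genes. The median log2 fold change was 0.08 for the 38 and 0.0028 for all genes. The 95% interval of each gene, from the same fit and for that gene alone, lay within a 2-fold difference for 38 of 38 and within 1.5-fold for 28.

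**Figure D1:**
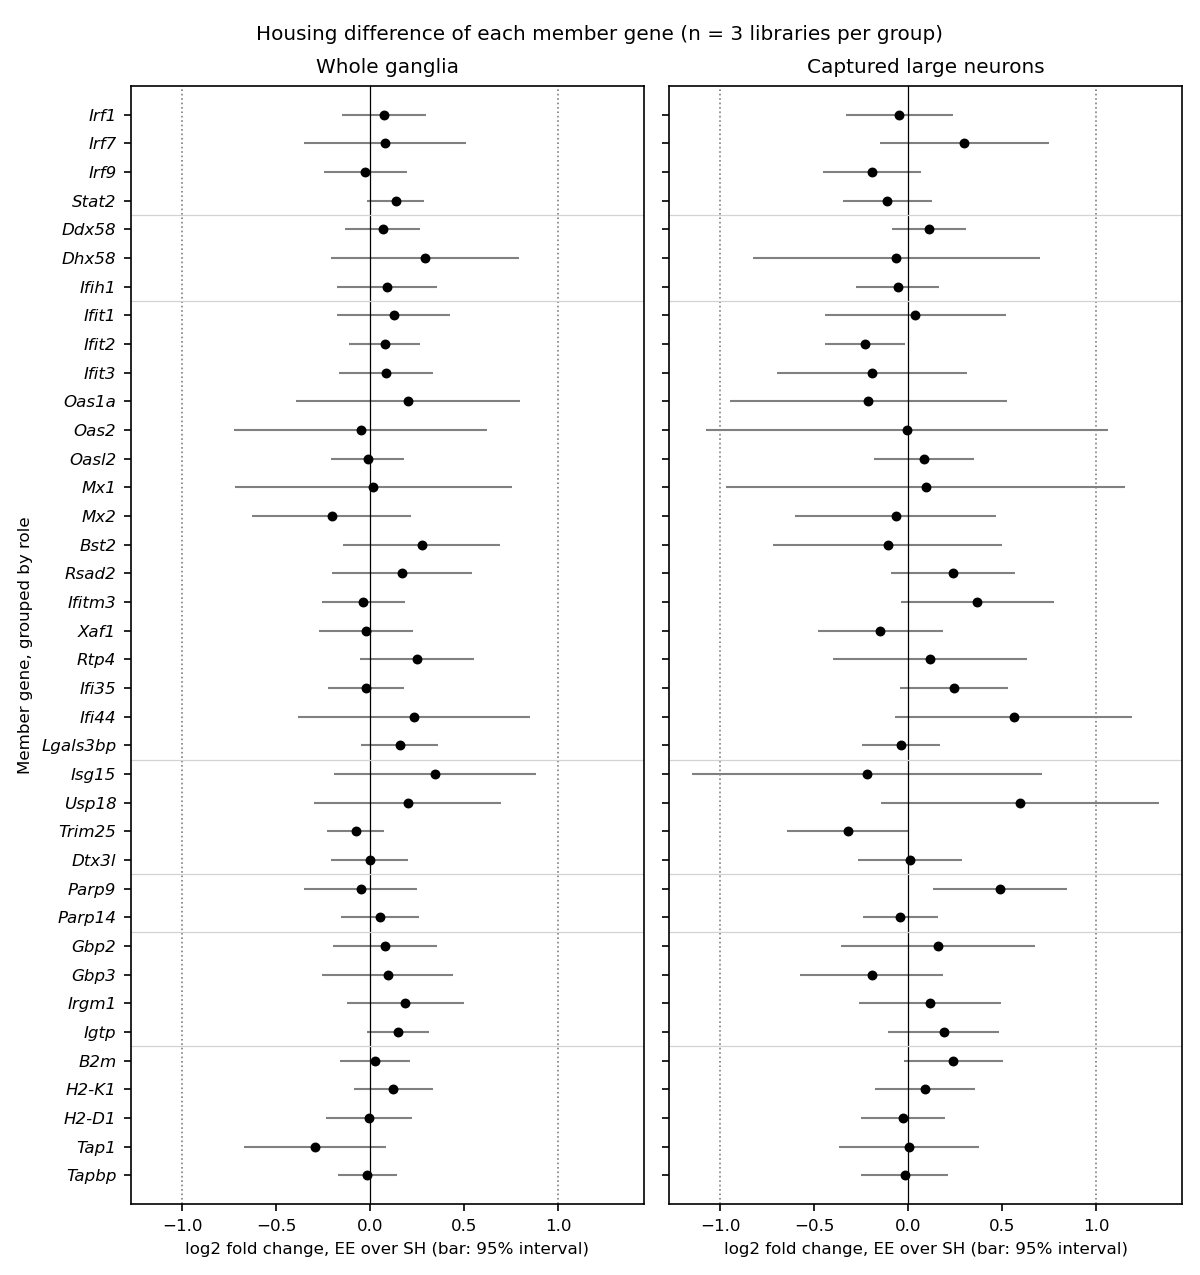
Log2 fold change of EE over SH (x axis) for each of the 38 genes (y axis, grouped by role) in whole ganglia on the left and captured neurons on the right; points are edgeR estimates from 3 libraries per group, bars are 95% intervals and dotted lines mark a 2-fold difference. Every whole-ganglion bar spans 0 and stays between the dotted lines, and Parp9 in captured neurons sits farthest from 0 relative to its bar.

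By role, the 4 transcription factors of the signal had a median log2 fold change of 0.08 in whole ganglia, with 3 of 4 positive. Stat2 had 70.2, 75.1 and 79.0 CPM in SH and 80.1, 81.2 and 84.9 CPM in EE. All EE libraries were above all SH libraries, by a narrow gap, and the log2 fold change was 0.14 (SE 0.0705, edgeR adjusted p = 0.9996). Irf7, the factor that amplifies the type I response, overlapped between the groups, with 6.30, 7.36 and 7.70 CPM in SH and 5.04, 10.1 and 7.18 CPM in EE. Irf1 and Irf9, the DNA-binding partner of STAT2, had log2 fold changes of 0.07 and −0.03.

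The 16 antiviral effectors had a median of 0.08, with 10 of 16 positive and 0 called. Rtp4, a receptor transporter that also restricts viruses, had 7.25, 8.88 and 7.30 CPM in SH and 8.10, 10.0 and 9.54 CPM in EE. Its groups overlapped, and the log2 fold change was 0.25 (SE 0.141). Lgals3bp, a secreted galectin-binding glycoprotein, had 43.0, 48.1 and 53.4 CPM in SH and 47.6, 59.8 and 53.2 CPM in EE, overlapping, with a log2 fold change of 0.16 (SE 0.0955). Rsad2, which encodes viperin, and Oas1a had the widest ranges among SH libraries. Rsad2 had 14.02, 16.7 and 10.6 CPM in SH and 14.3, 19.6 and 12.3 CPM in EE, and Oas1a 1.77, 3.18 and 2.55 CPM in SH and 1.71, 3.60 and 3.10 CPM in EE. In both genes the spread inside SH was as wide as 1.57-fold and 1.80-fold, and each housing overlapped the other.

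The ISG15 group tags proteins and trims the tag. Isg15 itself, the ubiquitin-like modifier, had the largest positive estimate of the list, 0.34 (SE 0.251), from 4.89, 5.12 and 4.15 CPM in SH and 3.69, 9.05 and 5.06 CPM in EE. EE replicate 1 was the lowest and EE replicate 2 the highest of the 6 libraries, a 2.45-fold range within EE. Usp18, the protease that removes ISG15 and damps the receptor, had 5.07, 5.49 and 6.43 CPM in SH and 3.96, 9.28 and 6.03 CPM in EE, the same order of extremes. Trim25, a ubiquitin ligase that activates the RNA sensor RIG-I, had 39.5, 38.9 and 41.6 CPM in SH and 36.7, 38.6 and 38.4 CPM in EE. Its groups did not overlap, EE being lower, with a log2 fold change of −0.08 (SE 0.071). Dtx3l, another ubiquitin ligase, had −0.0037.

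The RNA sensors Ddx58 (RIG-I), Ifih1 (MDA5) and Dhx58 (LGP2) had log2 fold changes of 0.07, 0.09 and 0.29, and the ADP-ribosyltransferase genes Parp9 and Parp14 −0.05 and 0.05. The 4 interferon-induced GTPases, which attack the vacuoles of intracellular microbes, were all positive, with a median of 0.12 and 0 called. Igtp, with the GAAACTGAAA run shown above, had 30.5, 29.7 and 30.3 CPM in SH and 31.0, 35.4 and 33.9 CPM in EE. Every EE library lay above every SH library, the lowest of them barely, and the log2 fold change was 0.15 (SE 0.0769). Igtp shares exon bases with Irgm2 in the annotation, so its reads are uncertain.

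MHC class I presentation genes had a median of −0.0046, with 2 of 5 positive. B2m had 197, 220 and 189 CPM in SH and 178, 222 and 215 CPM in EE. H2-D1 had 155, 180 and 188 CPM in SH and 149, 208 and 164 CPM in EE, and H2-K1 72.2, 85.0 and 86.3 CPM in SH and 74.9, 98.5 and 91.2 CPM in EE. EE replicate 2 was the highest of 6 for all 3 genes, EE replicate 1 the lowest for B2m and H2-D1, and the groups overlapped. Tapbp was narrow, with 67.6, 70.4 and 67.4 CPM in SH and 65.1, 73.5 and 64.3 CPM in EE. Tap1, a subunit of the peptide transporter into the endoplasmic reticulum, had the lowest estimate of the list, −0.29 (SE 0.176), from 6.24, 7.58 and 8.98 CPM in SH and 4.95, 7.36 and 6.12 CPM in EE. Tap1 shares exon bases with Psmb9 on the other strand, and the groups overlapped.

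Groups without overlap were 2 higher in EE (Stat2 and Igtp) and 1 lower (Trim25) of 38, against 3.19% and 4.29% of all genes. Within the 3 lane pairs of SH and EE, 5 of 38 were higher in EE in every pair (Stat2, Rsad2, Rtp4, Igtp and H2-K1), against 11.8% of all genes. The members lower in every pair were 3 (Mx2, Trim25 and Tap1), also against 11.8%. With the lane pair as a block, 0 of 38 were called, against 0.202% of all genes. Unadjusted p in the blocked edgeR fit was under 0.05 for Lgals3bp, higher in EE (0.15, adjusted p = 0.923), and for Tap1, lower (−0.31, adjusted p = 0.937). The background for these was 2.76% higher and 2.43% lower.

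The lane pairs went different ways. The median log2 difference of the 38 genes, EE minus SH, was −0.08 in lane 4 (10 of 38 higher in EE), 0.16 in lane 5 (27 of 38) and 0.05 in lane 6 (23 of 38). Relative to the SH mean, the median of EE replicate 1 was −0.14, that of EE replicate 2 was 0.20 and that of EE replicate 3 was 0.07, while SH libraries, which make up that mean, lay between −0.06 and 0.05. EE replicate 2 was the highest of 6 for 24 of 38 genes, a place it held for 19.1% of all genes. EE replicate 1 was the lowest of 6 for 21 of 38, against 22.4% of all genes. Without EE replicate 1 the median fold change of the list was 0.15, and without EE replicate 2 it was −0.03. The largest log2 differences in lane 5 were 0.76 for Isg15, 0.71 for Usp18 and 0.70 for Ifi44. Next came Bst2 at 0.62, Mx1 at 0.56 and Ifit1 at 0.51. In lane 4 the same genes, in that order, had −0.36, −0.32, −0.21, −0.04, −0.72 and −0.15. The lowest in lane 5 were Parp9 at −0.24, Dtx3l at −0.21 and Mx2 at −0.18. Ifi44 had 2.47, 3.25 and 3.62 CPM in SH and 2.07, 5.60 and 3.10 CPM in EE, a 2.70-fold range within EE.

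**Figure D2:**
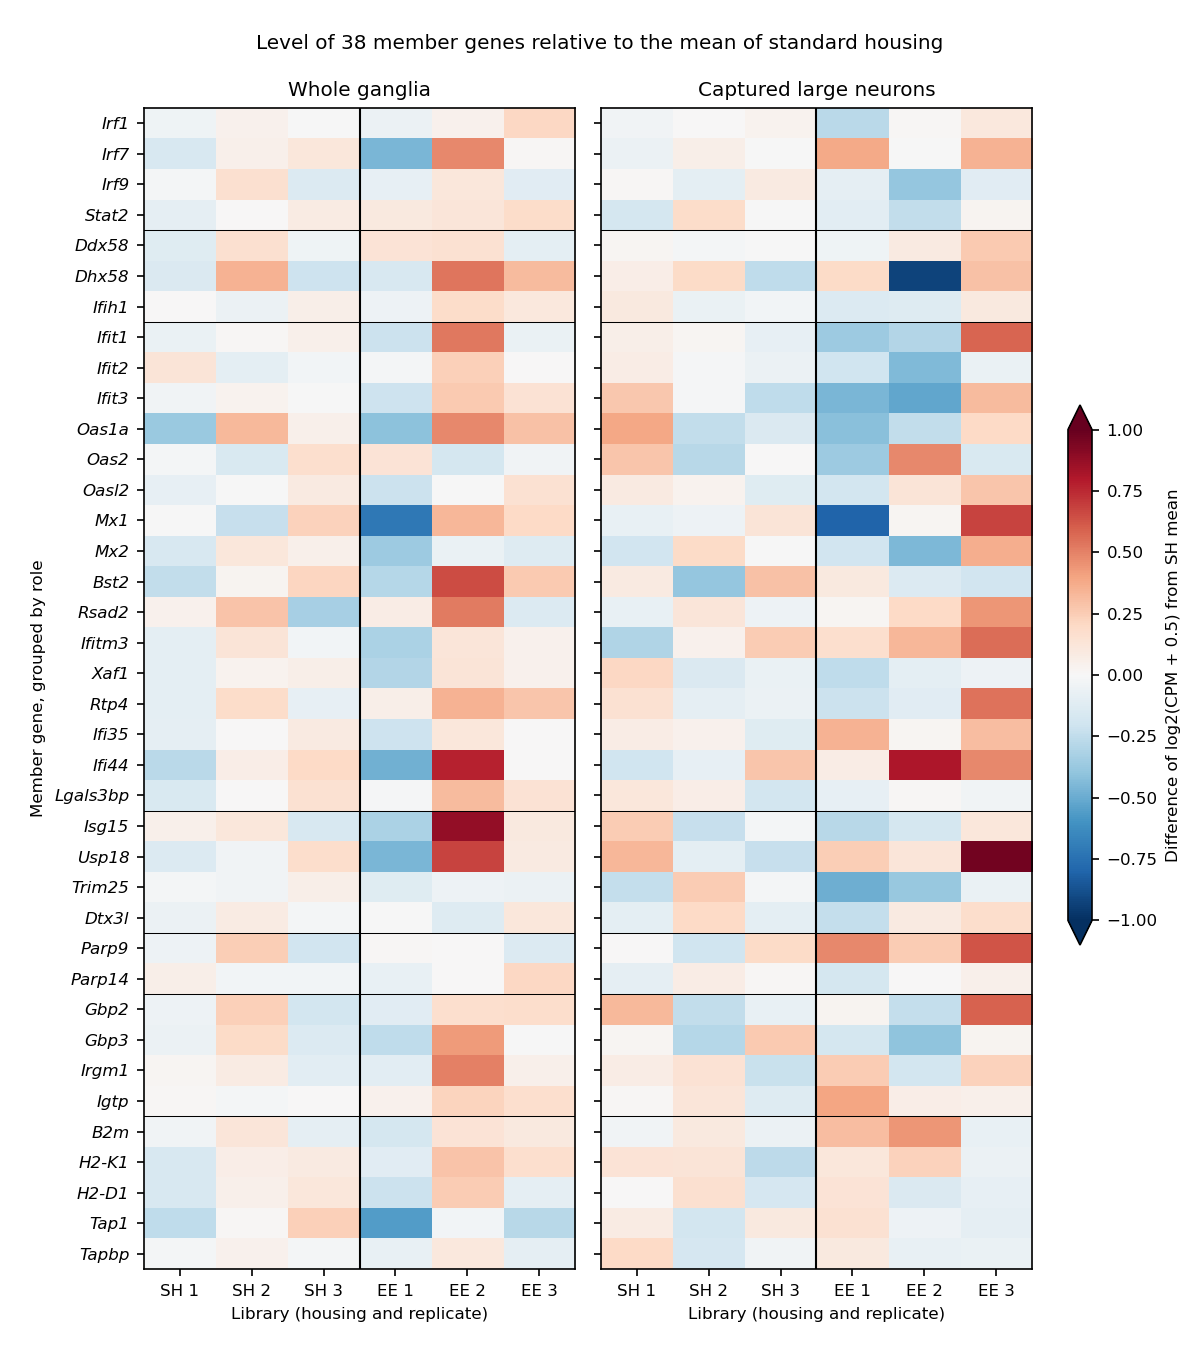
Each cell is the difference of log2(CPM + 0.5) of 1 gene (rows, grouped by role) in 1 library (columns) from the SH mean of its preparation, red above and blue below, with whole ganglia on the left and captured neurons on the right. The columns of EE replicate 1 and EE replicate 2 in whole ganglia contrast, being the lowest of 6 for 21 genes and the highest of 6 for 24 genes.

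Several of the 11 cell type marker lists also differed between EE replicates 1 and 2, in that order below. The summed level of 14 macrophage genes was 150 CPM in EE replicate 1 and 190 CPM in EE replicate 2, against 160 to 174 CPM in SH. The 8 myelinating Schwann cell genes summed to 6170 and 8857 CPM in these 2 libraries against 7055 to 8612 CPM in SH, and 10 endothelial genes to 168 and 213 CPM against 180 to 220 CPM. The 8 neutrophil genes summed to 195 and 245 CPM in them against 79.8 to 210 CPM in SH, and 6 erythrocyte genes to 314 and 352 CPM against 142 to 208 CPM. Skeletal muscle genes differed most, at 9.27 and 171 CPM against 3.71 to 139.9 CPM in SH. Satellite glia genes summed to 2588 and 3014 CPM against 2902 to 3169 CPM, fibroblast and meningeal genes to 751 and 920 CPM against 825 to 926 CPM, and lymphocyte genes to 7.83 and 9.59 CPM against 4.35 to 9.09 CPM. The neuron lists were close in the pair. Large-neuron genes summed to 13862 and 13624 CPM against 14296 to 15281 CPM in SH. All EE libraries, at 13177 to 13862 CPM, lay below all SH libraries for this list. Nociceptor genes summed to 3670 and 3617 CPM against 3404 to 3831 CPM in SH. The part of these cells in the spread of interferon genes was not tested. In such bulk samples, fewer cells of a type and less RNA per cell cannot be told apart.

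**Figure D3:**
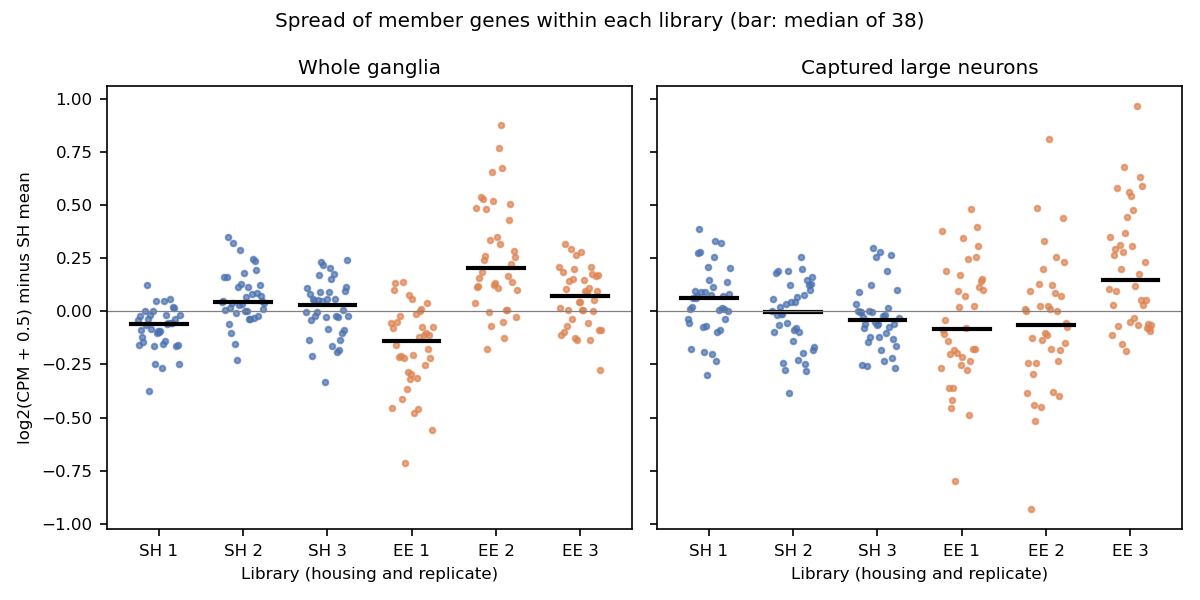
Points are the 38 genes in each library as log2(CPM + 0.5) minus the SH mean (y axis), with SH in blue, EE in orange and a bar at the median, for whole ganglia on the left and captured neurons on the right. In whole ganglia the median runs from −0.14 in EE replicate 1 to 0.20 in EE replicate 2, and in captured neurons from −0.08 in EE replicate 1 to 0.14 in EE replicate 3.

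The fold changes were also set beside the promoter motif. The 15 genes with GAAANNGAAA had a median whole-ganglion log2 fold change of 0.13, with 14 of 15 positive, and the 15 without it −0.0046, with 6 of 15 positive. Among all tested genes with a window, 58.3% of 393 with the motif and 51.4% of 10485 without it were positive. None of the 15 was called. By lane pair, their median log2 difference was −0.06 in lane 4, 0.23 in lane 5 and 0.14 in lane 6, and that of the 15 without the motif −0.10, 0.10 and −0.01. For TTCNNNGAA, the medians were 0.08 in the 7 genes with it and 0.08 in the 23 without. In captured neurons the medians were 0.04 with GAAANNGAAA (8 of 15 positive) and −0.02 without it (7 of 15). Both motifs were searched after the fold changes were known.

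In captured large neurons, none of the 38 genes differed between EE and SH either (edgeR, adjusted over 16186 genes, smallest adjusted p = 0.195). The background was 3 genes called (0.0185%). The sign was positive for 19 of 38, with a median of −0.0012 for the list and −0.00059 for all genes. Unadjusted p was under 0.05 for 1 gene higher in EE (Parp9) and 2 lower (Ifit2 and Trim25), against 7.3% of all genes higher and 8.62% lower. Groups did not overlap for 1 higher (Parp9) and 1 lower (Ifit2), against 10.2% and 10.9%. The 95% interval lay within a 2-fold difference for 33 of 38 and within 1.5-fold for 22.

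Parp9, which pairs with Dtx3l in a complex of ADP-ribosylation and ubiquitin transfer, had 6.86, 5.88 and 7.86 CPM in captured SH and 9.73, 8.23 and 10.8 CPM in captured EE. All EE libraries were above all SH libraries, with a log2 fold change of 0.49 (SE 0.16, edgeR adjusted p = 0.195). Parp9 and Dtx3l lie head to head on chromosome 16, their annotated starts 681 nt apart and their first exons overlapping on opposite strands (mm10, Dtx3l 35926511 to 35939151 and Parp9 35938470 to 35972605). Dtx3l had a log2 fold change of 0.0074 in the same libraries, with 26.7, 32.8 and 26.6 CPM in SH and 24.2, 30.3 and 32.2 CPM in EE, which overlapped.

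Ifit2, a tetratricopeptide protein that inhibits viral messenger RNA, had 74.5, 70.2 and 67.9 CPM in captured SH and 61.5, 52.1 and 67.5 CPM in captured EE. EE was lower without overlap, by the margin between 67.5 and 67.9 CPM, and the log2 fold change was −0.23 (SE 0.0955, edgeR adjusted p = 0.276). Trim25 had 22.4, 31.7 and 26.1 CPM in SH and 18.7, 20.3 and 25.3 CPM in EE. These overlapped, and the log2 fold change was −0.32 (SE 0.145). Within lane 3 alone, which held 2 SH and 2 EE captured libraries, Trim25 was at −0.09, Ifit2 at −0.25 and Parp9 at 0.38.

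B2m had 69.0, 75.9 and 67.8 CPM in captured SH and 87.7, 96.2 and 67.1 CPM in captured EE, a log2 fold change of 0.24 (SE 0.119). EE replicates 1 and 2 were the highest and EE replicate 3 the lowest of the 6. Ifitm3 had 4.99, 6.45 and 7.55 CPM in SH and 7.09, 7.97 and 9.46 CPM in EE, with 0.37 (SE 0.183) and 1 EE library inside the SH range. Bst2, the tetherin that holds budding virus, and Gbp2 had the widest ranges of log2(CPM + 0.5) among captured SH libraries, of the members with an average log2 CPM of at least 1. Bst2 had 2.22, 1.46 and 2.64 CPM in SH and 2.23, 1.83 and 1.74 CPM in EE, and Gbp2 10.0, 6.59 and 7.50 CPM in SH and 8.07, 6.65 and 12.2 CPM in EE. Housing overlapped in both. Dhx58 had 3.02, 3.34 and 2.33 CPM in SH and 3.34, 1.27 and 3.63 CPM in EE, with EE replicate 2 lowest by far. Ifit1 had 26.5, 25.7 and 23.995 CPM in SH and 19.6, 20.6 and 38.1 CPM in EE, a 1.94-fold range within EE around a narrow SH group. H2-D1, H2-K1, Tapbp and Tap1 had log2 fold changes of −0.03, 0.09, −0.02 and 0.0049.

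EE replicate 3 was the highest of 6 captured libraries for 15 of 38 genes, a place it held for 14% of all genes, and EE replicate 1 the lowest for 14 of 38, against 20.1%. Medians relative to the SH mean were 0.14 and −0.08 in these libraries. Without captured EE replicate 3 the median fold change of the list was −0.06, and in lane 3 alone it was 0.09, with 0 of 38 called against 4.06% of all genes. The large-neuron and satellite glia marker sums did not overlap between the housings here. The 10 large-neuron genes summed to 10593 to 14437 CPM in EE and 8189 to 10182 CPM in SH. In whole ganglia, EE was the lower group for these genes, also without overlap. In captured neurons, the 8 satellite glia genes summed to 2648 to 2897 CPM in EE and 2097 to 2359 CPM in SH. All other marker sums of captured neurons overlapped. Macrophage genes summed to 73.2 to 92.7 CPM in EE and 60.2 to 85.8 CPM in SH. Endothelial genes had 138 to 160 CPM in EE and 134 to 149 CPM in SH. Nociceptor genes had 2520 to 3218 CPM in EE and 3156 to 3757 CPM in SH. Myelinating Schwann cell genes had 927 to 1137 CPM in EE and 1036 to 1274 CPM in SH. The part of these cells in the values above was not tested. Without captured SH replicate 2, the library with muscle RNA, 0 of 38 and 0 of all 16516 genes tested were called, and the median of the list was 0.05.

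A test of whether the housing effect differed between captured neurons and whole ganglia, an interaction over all 12 libraries and 17412 genes, called 0 of 38 members and 0% of all genes (edgeR). DESeq2 called 0 members and 145 of the 17412 genes. Unadjusted p was under 0.05 for 2 of 38, against 11.7% of all genes. The difference of the log2 fold changes, captured minus whole, was 0.53 for Parp9 (SE 0.222, adjusted p = 0.373), −0.32 for Ifit2 (SE 0.141, adjusted p = 0.400) and −0.26 for Stat2 (SE 0.13, adjusted p = 0.459). Stat2 in captured neurons had 48.2, 62.0 and 54.4 CPM in SH and 50.6, 46.0 and 55.7 CPM in EE, which overlapped. Library kit, capture, sequencing lane, RNA integrity, read length and mice per library differ together between the preparations and cannot be told apart. The RNA integrity number was 6 to 7 in captured neurons and at least 7.5 in whole ganglia. Reads were 125 nt long in captured neurons and 100 nt in whole ganglia.

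The list differed in level between the preparations. In SH, 7 of 38 genes (18.4%) had a higher mean CPM in captured neurons than in whole ganglia, against 41.3% of 14800 genes. No test was made of this difference. The 7 were Ifih1 at 2.39 times its whole-ganglion level, Ifit2 at 1.69, Parp14 at 1.66, Dtx3l at 1.54, Mx2 at 1.45, Ddx58 at 1.18 and Gbp3 at 1.03 times. The lowest ratios were 0.133 for Ifitm3, 0.138 for Isg15, 0.202 for Bst2, 0.278 for Usp18 and 0.351 for B2m. Isg15 was thus at 10 to 17 reads per captured library, a depth at which its housing interval reached from 0.451 to 1.64-fold. Per length, using the lengths implied by the whole-ganglion table, B2m was again first in captured SH neurons at 82.0 CPM per kb, followed by H2-D1 at 34.7, Ifit2 at 17.9 and H2-K1 at 16.0 CPM per kb. Ifit2 had been the 13th of 38 in whole ganglia and Ifitm3 moved from the second place to the ninth.

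Transcript length went with this ratio. Spearman's rho between length and the log2 ratio was 0.607 across the 38 genes and 0.462 across all 14800, given as descriptions, since the genes share the same 6 libraries and are not independent. The median log2 ratio of all genes was −0.89 for transcripts under 1000 nt and 0.49 for those over 6000 nt. The 4 members under 1000 nt (Ifitm3, Isg15, Bst2 and B2m) had a median of −2.12, below the median of their length class, and the 4 over 6000 nt a median of 0.48.

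**Figure D4:**
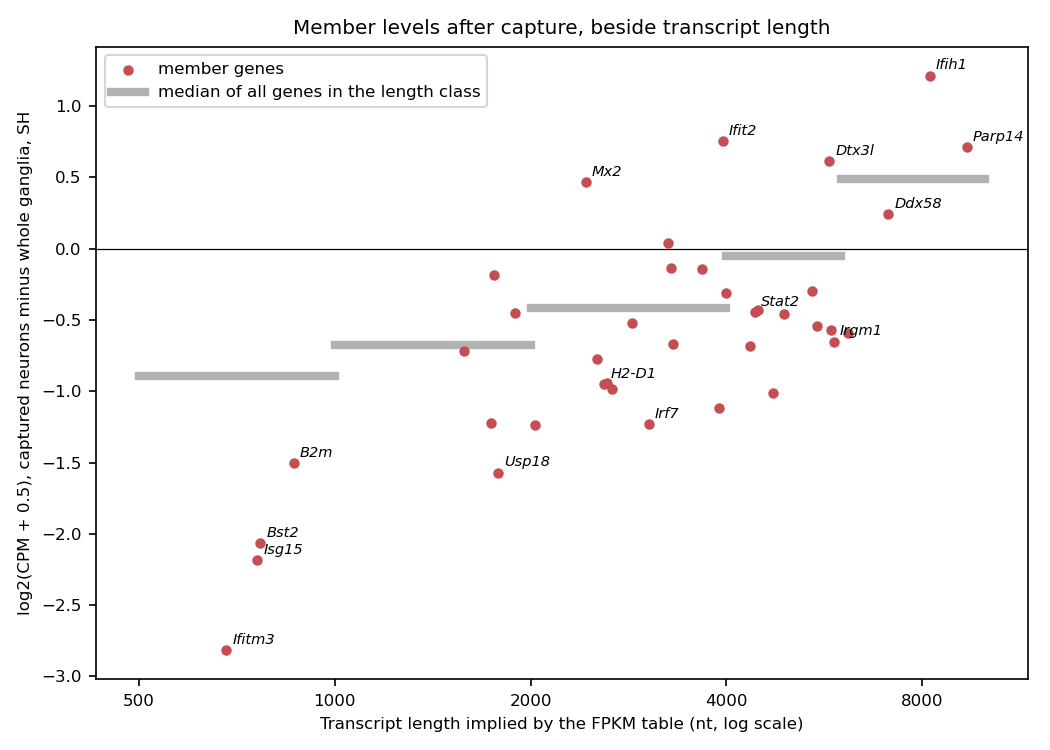
Difference of log2(CPM + 0.5) between captured neurons and whole ganglia of SH mice (y axis) against implied transcript length (x axis, log scale) for the 38 genes (red points), with grey bars at the median of all genes in each length class. The 4 shortest members lie below the grey bar of −0.89 and Ifih1, among the longest, lies above the bar of 0.49.

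Other genes of the pathway, 115 from lists of receptors, ligands, sensors, effectors and presentation genes, gave 0 calls in any comparison, with 95 tested in whole ganglia and 94 in captured neurons. In whole ganglia their median was 0.02, with 50 of 95 positive. The smallest p belonged to Ifnar1, a chain of the type I receptor, with 54.4, 54.9 and 52.5 CPM in SH and 61.4, 58.6 and 60.0 CPM in EE, a log2 fold change of 0.15 with an edgeR adjusted p = 0.9996 like the rest. Next were Zbp1, a sensor of left-handed nucleic acid, at 0.67, and Calr, the chaperone calreticulin of the peptide-loading complex, at −0.16. In captured neurons the smallest p belonged to Ube2l6, the conjugating enzyme of ISG15, with 8.92, 7.49 and 7.96 CPM in SH and 12.6, 11.4 and 9.82 CPM in EE (0.47, adjusted p = 0.165). H2-T22, a non-classical class I gene, followed at 0.28 (adjusted p = 0.171), and Pdia3, a disulfide isomerase of the loading complex, at −0.22 (adjusted p = 0.177). For the difference between preparations, Calr was at 0.37 (adjusted p = 0.238), Irf5 at −0.51 (adjusted p = 0.242) and Trim56 at −0.29 (adjusted p = 0.393). The receptor and signalling list of 16 had medians of 0.03 in whole ganglia and −0.11 in captured neurons.

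The ligands had few or no reads. The 8 interferon genes looked for (Ifnb1, Ifng, Ifnk, Ifne, Ifnl2, Ifnl3, Ifna2 and Ifna4) had 0 reads in all whole-ganglion libraries, which allows up to 0.176 to 0.264 CPM per library, taking 3 reads as the limit and counting error only. In captured libraries, 43 reads over 6 of the 8 genes were counted, at most 6 in a library, and none of the 8 was tested.

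Several members are neighbours. Ifit2, Ifit3 and Ifit1 lie in a row on chromosome 19 between 34550694 and 34650009 (mm10), and their log2 fold changes were 0.08, 0.09 and 0.13 in whole ganglia and −0.23, −0.19 and 0.04 in captured neurons. Gbp3 and Gbp2 on chromosome 3 had 0.09 and 0.08 in whole ganglia and −0.20 and 0.16 in captured neurons. Mx1 and Mx2, dynamin-like GTPases 72400 nt apart on chromosome 16, had 0.02 and −0.20 in whole ganglia. The annotation lists Mx2 as a polymorphic pseudogene and Mx1 as protein coding. Oas2 and Oas1a on chromosome 5 had −0.05 and 0.20. In the annotation, 14 of 38 members share exon bases with another gene, 10 of them with one on the opposite strand. The strand setting of the counting is not given in the sources used here, so reads of such pairs cannot be told apart.

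The remaining members were not called either. In whole ganglia, Oasl2, Xaf1 and Ifi35 had −0.01, −0.02 and −0.02, and Irgm1 0.19. In captured neurons, Oasl2, Xaf1, Ifi35 and Irgm1 had 0.08, −0.15, 0.24 and 0.12, Rsad2 0.24 and Irf7 0.30. The largest captured estimates of the list, above that of Parp9, were 0.59 for Usp18 (SE 0.332) and 0.56 for Ifi44 (SE 0.284). Their 95% intervals reached 2.52-fold and 2.28-fold higher in EE, and from 0.904-fold and 0.951-fold at the lower end. Ifi27, read from the row Ifi27l1, had 142, 124 and 141 CPM in SH and 130, 153 and 138 CPM in EE in whole ganglia, overlapping, with a log2 fold change of 0.05 there and 0.16 in captured neurons.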

How the data were processed

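The authors deposited tables of read counts by gene name, 1 per preparation, over 12 libraries. Alignment and counting tools named in the submitters' processing notes include HTSeq 0.6.0, TopHat2 2.0.12 and Bowtie2 2.2.3; the notes assign them no role and give mm10 as build. The authors' FPKM values were used for levels in whole ganglia. The table named FPKM for captured neurons, as deposited, held a signal equal to counts times 1 constant per library, with no division by length, and served only as an alternative. The 5 summary rows naming no gene stayed out of library sizes; reads outside any feature made up 47.0 to 47.6% in whole ganglia and 28.0 to 36.3% in captured neurons.

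Counts were filtered with filterByExpr, scaled by TMM and tested with edgeR 4.0.16 (R 4.3.3, quasi-likelihood, Benjamini-Hochberg over all tested genes, threshold 0.05) within each preparation, with an interaction over all 12 libraries. CPM values use the TMM-scaled library sizes, and log2 levels use a pseudocount of 0.5. Alternatives used DESeq2 1.42.0, limma 3.58.1, other scalings and filters, the deposited second tables with 1 or 0.1 added, lane 3 alone, a lane-pair block, and each library left out. Lane pairs in whole ganglia rest on lanes in the labels. Deviations of same-numbered libraries correlated at 0.333, 0.160 and 0.0736. Those of differently numbered libraries correlated at −0.344 to 0.189, the highest being EE replicate 2 with SH replicate 3. No 2 libraries of a group agreed within counting noise.

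The members and lists were chosen with earlier results of these data known. Values per library are printed for the 5 members with the smallest p in each housing comparison, the 5 with the highest FPKM, the 3 with the smallest p for the difference and the 2 with the widest range in each group, at an average log2 CPM of at least 1. Pathway genes are named by the 3 smallest p in each comparison, apart from Cd74 and H2-Ab1, which were named outside this rule. Irf7, Usp18 and Dtx3l were added after their values were seen, as were the promoters shown. Promoters came from RefSeq, positions from GENCODE.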

Additional observations from a re-analysis of the deposited data

How the results depend on the processing

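No member was called under any of the 15 alternatives in whole ganglia (smallest adjusted p between 0.904 and 1), the 16 in captured neurons (0.112 to 0.532) or the 19 for the difference between preparations (0.199 to 0.652). Not every alternative could call all members. At an average log2 CPM of at least 3, 28 members were tested in whole ganglia and 24 in captured neurons. The second table of whole ganglia left 35. DESeq2 gave Parp9 and Ifitm3 no adjusted p in captured neurons. With the lane pairs as a replicate block, 0 members were called in whole ganglia and the median log2 fold change of the list was 0.07. In captured neurons, whose same-numbered libraries did not all share a labelled lane, the replicate block gave 0 calls and a median of −0.03. Deviations of same-numbered captured libraries correlated at 0.110, −0.0435 and 0.145, and those of differently numbered ones at −0.187 to 0.0762. Leaving out 1 library at a time moved the whole-ganglion median between −0.03 (without EE replicate 2) and 0.15 (without EE replicate 1), and the captured median between −0.06 (without EE replicate 3) and 0.06 (without SH replicate 1). Over every alternative run the captured median lay between −0.06 and 0.09 (lane 3 alone). Counts over all genes moved more: in whole ganglia 1 gene was called, against 48 with no filter and 32 with the lane-pair block. In captured neurons 3 were called, against 522 with DESeq2, 902 with no filter, 168 and 55 from the deposited second table with 1 or 0.1 added, 658 in lane 3 alone and 602 without EE replicate 1. For the difference 0 were called, against 145 with DESeq2, 457 with no filter and 233 without captured EE replicate 1. The other alternatives called 0 to 3 genes in each comparison. With 3 libraries per group, differences inside the 95% interval of a gene were not excluded. The interval is not a limit of detection. That of Parp9 in captured neurons ran from 0.13 to 0.84 in log2 fold change, and Parp9 was not called. Intervals were widest for members at few reads, such as Oas2, Mx1 and Isg15 in captured neurons.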

Other observations

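MHC class II genes, which mark antigen-presenting cells and are induced by type II interferon, were not part of the list. Cd74, the invariant chain, had 36.5, 42.6 and 42.0 CPM in SH and 27.6, 42.2 and 36.9 CPM in EE in whole ganglia, a log2 fold change of −0.17 that was not called (edgeR adjusted p = 0.9996). The class II chain H2-Ab1 had 18.6, 20.1 and 19.9 CPM in SH and 11.8, 18.6 and 19.7 CPM in EE. EE replicate 1 was the lowest of the 6 libraries for both genes, a place it held for 22.4% of all genes. That library was also lowest for the macrophage (150 CPM), endothelial (168 CPM) and myelinating Schwann cell (6170 CPM) marker sums. The same held for satellite glia (2588 CPM) and fibroblast and meningeal genes (751 CPM). It was not lowest for the lymphocyte, neutrophil, erythrocyte, skeletal muscle, large-neuron or nociceptor sums. The part of these cells was not tested. In captured neurons Cd74 had 9.12, 7.34 and 8.33 CPM in SH and 8.65, 7.21 and 5.05 CPM in EE, overlapping. The 21 tested genes of the other antigen presentation list, class II and loading genes together, had 7 positive and 14 negative log2 fold changes in whole ganglia and 11 and 10 in captured neurons, with 0 called in either.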
